A study of Mus musculus with 14 samples.

Results

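Dnmt1-KO and Dnmt3ab-DKO embryos were mouse embryos in which either the maintenance or the de novo DNA methyltransferase genes had been given a stop codon by base editing at the zygote stage. All embryos in the tables of these 2 groups were taken as members. Names with the group's short form and a number were read as edited embryos, and names with the suffix C were read as controls. This gave 16 edited embryos and 4 controls, 20 of the 88 embryos in the 7 tables of the series. Each table held 4 edited embryos and 1 control at embryonic day 9.5 (E9.5) and the same numbers at E10.5. Of the 16 edited embryos, 8 had a number that 1 of the 4 labelled samples of these groups has (numbers 1 and 2), and the other 8 were numbered 3 or 4 and belong to no labelled sample.

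Dnmt1-KO zygotes were injected with mRNA of the cytosine base editor hA3A-eBE3-Y130F and the sgRNA for Dnmt1, and Dnmt3ab-DKO zygotes with the same mRNA and the sgRNAs for Dnmt3a and Dnmt3b. The editor is a fusion of a Cas9 nickase, an engineered human APOBEC3A deaminase and a uracil glycosylase inhibitor, and changes C to T near the distal end of the sequence that the sgRNA pairs with. Per the labels, all embryos came from C57BL/6 males and F1 females. The study's methods name the dams as B6D2F1 and the sires as Oct4-EGFP males. The study's injection records list control embryos as injected with the editor mRNA and no sgRNA, but do not tie that entry to the single control embryos used here. Litter, sex and day of injection were not given, and how embryos were picked for sequencing was not stated. Injected zygotes can be mosaic, so a share of reads describes a whole embryo and not the genotype of its cells.

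DNA methylation of CpG sites is copied to the new strand after replication by Dnmt1, the maintenance enzyme. Dnmt3a and Dnmt3b are the de novo enzymes, which set methylation on unmethylated DNA after implantation and in the germ line. Mouse embryos that lack Dnmt1, or both Dnmt3a and Dnmt3b, are known to arrest and die around mid-gestation. The catalytic domain lies in the carboxy-terminal part of each of the 3 proteins, downstream of the codons targeted here.

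The 3 sites are shown first because every value below is a share of reads at a base of these windows. A window has 26 bases on the guide strand, 5′ to 3′, which are 3 flanking bases, the 20-base protospacer and the 3-base PAM. Capitals in the reference lines mark the C at which edited embryos had a mean T share of at least 5%, and capitals in the edited lines mark bases whose most frequent read differed from the reference.
Dnmt1 reference: ccaatCaatCagtggtggctcagtgg
Dnmt1 edited: ccaatTaatTagtggtggctcagtgg
Dnmt3a reference: gcagttCCaggggtcttccttaatgg
Dnmt3a edited: gcagttTTaggggtcttccttaatgg
Dnmt3b reference: agagtatCaggtaaagcctgagaagg
Dnmt3b edited: agagtatTaggtaaagcctgagaagg

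Positions are counted from 1 at the first base of the protospacer, and bases before it are negative. In Dnmt1 (ENSMUSG00000004099.16) the protospacer was found at chr9:20923746-20923765 (GRCm38, minus strand), within exon 18 of the 39 exons of transcript Dnmt1-201, and the gene is read from the same strand. C7T turned the CAG of codon 469 of 1620 into a stop (Q469*), and C3T in the same window was synonymous. In Dnmt3a (ENSMUSG00000020661.15) it was found at chr12:3899923-3899942 (GRCm38, minus strand) within exon 15 of 23 of Dnmt3a-201, and this gene is read from the plus strand. The capital letters there are C4 and C5, which pair with the TGG of codon 577 of 908, so that C4T, C5T or both give a stop (W577*). In Dnmt3b (ENSMUSG00000027478.15) it was found at chr2:153666095-153666114 (GRCm38, plus strand), with 7 bases in exon 7 of 24 of Dnmt3b-201 and 13 bases in the next intron. C5T changed codon 225 of 860 into a stop (Q225*). The stop was present in 4 of 4 complete coding transcripts of Dnmt1, 4 of 4 of Dnmt3a and 10 of 10 of Dnmt3b.

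The first question was how much of the DNA at each target carried the stop codon, and whether controls carried it. At Dnmt1 C7 the T share in E9.5 embryos 1 to 4 was 99.4%, 99.3%, 99.3% and 99.3%, and in E10.5 embryos 1 to 4 it was 99.5%, 99.5%, 99.5% and 99.7%. The controls had 0.517% at E9.5 and 0.342% at E10.5. All 8 edited embryos were thus far above both controls, with a mean of 99.4% ± 0.164 (SD, n = 8). The difference was 99.005 percentage points (p = 0.0222 in an exact permutation test over embryos, two-sided, and 0.0222 after adjustment over the 3 genes, n = 8 and 2).

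At Dnmt3a C5 the T share was 99.6%, 99.6%, 97.2% and 99.8% in E9.5 embryos 1 to 4, and 99.7%, 99.6%, 99.5% and 99.5% in the E10.5 embryos. E9.5 embryo 3 was the 1 embryo below 99%. Controls had 1.15% at E9.5 and 0.499% at E10.5, and the difference of means was 98.5 points (exact permutation test, p = 0.0222, adjusted p = 0.0222, n = 8 and 2).

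At Dnmt3b C5 the T share was 98.8%, 98.6%, 95.2% and 97.9% in E9.5 embryos 1 to 4, and 98.9%, 95.9%, 97.8% and 97.95% in the E10.5 embryos. These were the lowest values of the 3 sites, with E9.5 embryo 3 and E10.5 embryo 2 below 96%. Controls had 3.17% at E9.5 and 0.864% at E10.5, and the difference of means was 95.6 points (exact permutation test, p = 0.0222, adjusted p = 0.0222, n = 8 and 2). Edited and control embryos did not overlap at 3 of 3 targets, and 3 of 3 passed the threshold of 0.05 on the adjusted p (100% of the targets tested). With 8 embryos against 2 there are 45 splits, so 0.0222 is the smallest p the design allows. Without either control the smallest possible p is 0.111, and no target could pass. Only 2 control embryos stand behind each comparison. A p at this floor shows only that edited and control embryos did not overlap, and it does not measure the spread between embryos.

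**Figure D1:**
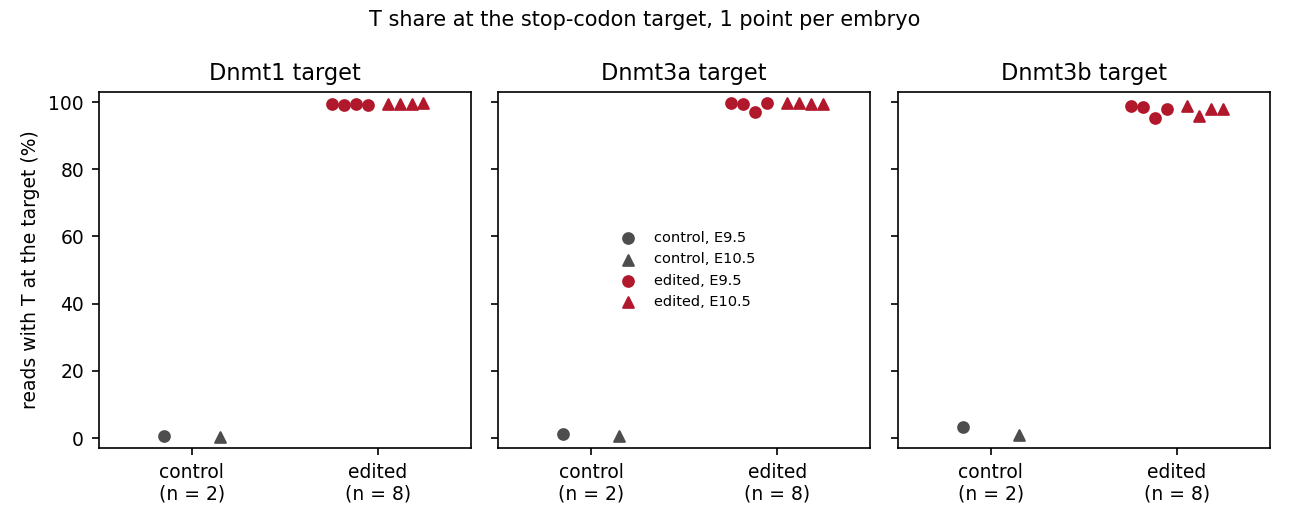
Percentage of reads with T at the stop-codon target of Dnmt1, Dnmt3a and Dnmt3b (y axis) in control and edited embryos (x axis), 1 point per embryo, with circles for E9.5 and triangles for E10.5. Edited embryos lie between 95.2% and 99.7% or 99.8%, and the 2 controls of each panel between 0.342% and 3.17%.

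Control embryos of 4 other tables of the series, measured at the same bases, had T shares from 0.0485% to 2.36% at Dnmt1 (median 0.947%, n = 9), from 0.194% to 5.03% at Dnmt3a (median 1.07%, n = 10) and from 0.282% to 2.15% at Dnmt3b (median 0.947%, n = 10). At Dnmt1 the 6KO control of E7.5 and the Dnmt-TKO control of E6.5 were listed with the same values at all 25 bases that both give, and they were counted as 1. The 4 controls used here lay inside or, at Dnmt3b and E9.5, above the range of the other controls. Read numbers were listed for 3 of the 30 windows, all of them controls. The E10.5 Dnmt1 control had 673066 reads at the target and a T share of 0.342% (95% Clopper-Pearson interval 0.329 to 0.357). The E9.5 Dnmt3a control had 46419 reads there (1.15%, interval 1.06 to 1.25), and the E10.5 Dnmt3a control had 60138 (0.499%, interval 0.444 to 0.558). These intervals cover counting error only, since PCR reads without molecular identifiers are not independent molecules. For the other 27 windows, including all 24 of edited embryos, the depth was not given, and no interval or detection limit is stated.

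The number of embryos with every targeted site at or above 90% T was 8 of 8 in Dnmt1-KO and 8 of 8 in Dnmt3ab-DKO, and both counts were the same at 95%. At 98% the counts were 8 of 8 and 3 of 8, and at 99% they were 8 of 8 and 0 of 8. In Dnmt3ab-DKO the Dnmt3b site set these lower counts. At 99%, 7 of 8 embryos passed at Dnmt3a and 0 of 8 at Dnmt3b. All these embryos carry a knockout name and how they were picked was not stated, so the counts are not editing rates of injected zygotes.

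The share of unconverted C at the target, the wild-type base, was compared next between the maintenance gene and the de novo genes. At Dnmt1 it was 0.340%, 0.565%, 0.554% and 0.581% in E9.5 embryos 1 to 4 and 0.355%, 0.307%, 0.408% and 0.184% in E10.5 embryos 1 to 4. The mean was 0.412% ± 0.143 (SD, n = 8), and every Dnmt1-KO embryo was below 0.6%.

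At Dnmt3a it was 0.312%, 0.382%, 2.74% and 0.181% at E9.5 and 0.227%, 0.239%, 0.438% and 0.431% at E10.5, with a mean of 0.619% ± 0.863 (SD, n = 8) and a median of 0.347%. The SD came mostly from E9.5 embryo 3, and the other 7 embryos lay between 0.181% and 0.438%. At Dnmt3b it was 1.07%, 1.36%, 4.55% and 2.01% at E9.5 and 1.06%, 3.93%, 2.02% and 1.96% at E10.5, with a mean of 2.24% ± 1.30 (SD, n = 8).

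Residual C at Dnmt3b was higher than at Dnmt1 by 1.83 points, and all 8 Dnmt3ab-DKO embryos were above the highest Dnmt1-KO embryo (two-sided exact permutation test, p = 0.000155, adjusted p = 0.000466 over 3 pairs of sites, n = 8 and 8). It was also higher than at Dnmt3a in 8 of 8 embryos in which both sites were read, by 1.63 points on average and by 0.760 to 3.69 points in single embryos (exact sign-flip permutation test, two-sided, p = 0.00781, adjusted p = 0.0117, n = 8). In the single embryos, Dnmt3b held from 1.66 to 16.4 times the residual C of Dnmt3a. Between Dnmt3a and Dnmt1 the difference was 0.207 points (exact permutation test, p = 0.919, adjusted p = 0.919, n = 8 and 8), and 1 of 8 embryos was above every Dnmt1-KO embryo at Dnmt3a. Without the embryos numbered 3 of both groups the sign of this last difference turned (−0.0932 points). The 2 de novo sites thus differed from each other in the same animals, whereas the difference between Dnmt3a and Dnmt1 was within the spread between embryos. Site, sgRNA, amplicon and table change together between Dnmt1 and the de novo genes and cannot be told apart. Site, sgRNA and amplicon also change together between Dnmt3a and Dnmt3b. Control T shares at E9.5 and E10.5 were 0.517% and 0.342% at Dnmt1 and 1.15% and 0.499% at Dnmt3a. At Dnmt3b they were 3.17% and 0.864%. Controls of the other tables had medians of 0.947%, 1.07% and 0.947% at these sites. Residual C in edited embryos ranged from 0.184% to 0.581% at Dnmt1, from 0.181% to 2.74% at Dnmt3a and from 1.06% to 4.55% at Dnmt3b. At Dnmt1 all of it lay below the median T share of the other controls, and at Dnmt3b all of it lay above. T in controls and C in edited embryos are different base changes, and the part of such errors in the residual C was not tested.

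**Figure D2:**
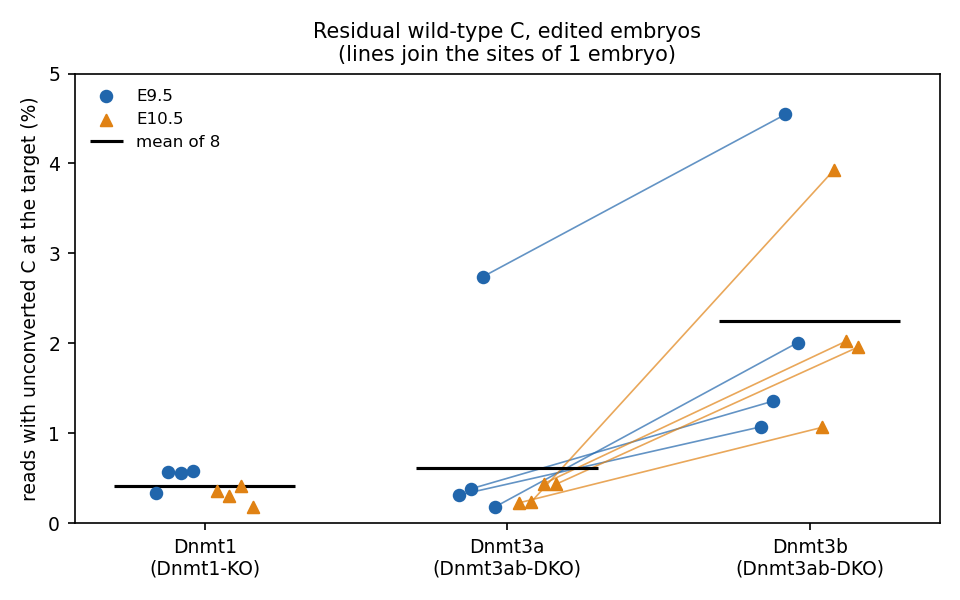
Percentage of reads with unconverted C at the target (y axis) for each of the 3 sites (x axis) in edited embryos, with lines joining Dnmt3a and Dnmt3b of the same embryo and black bars for the mean of 8. All 8 lines rise from Dnmt3a to Dnmt3b, and all Dnmt1-KO embryos lie below 0.6%.

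Residual C at the de novo sites was also followed across embryos, to see whether an embryo with more of it at one site had more at the other. Over the 8 Dnmt3ab-DKO embryos Pearson's r between residual C at Dnmt3a and Dnmt3b was 0.70 (exact permutation p = 0.0756) and Spearman's rho was 0.45 (permutation p = 0.267). E9.5 embryo 3 was highest at both sites. Without the 2 embryos farthest from the median at Dnmt3a, E9.5 embryos 3 and 4, r was −0.18 (exact permutation p = 0.825, n = 6) and rho was 0.43 (permutation p = 0.419). Without E9.5 embryo 3 alone r was −0.17 (exact permutation p = 0.783, n = 7) and rho was 0.18, and without E9.5 embryo 4 alone they were 0.70 and 0.64. Pearson's r thus rested on E9.5 embryo 3, and no value of rho passed the test. E10.5 embryo 2 held 3.93% at Dnmt3b and 0.239% at Dnmt3a. Within E9.5 r was 0.95 and within E10.5 it was −0.20, with 4 embryos each and no test. This was the only pair of sites so compared. It was computed over several sets of embryos, and none of its p-values is adjusted for that.

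A and G at the target base were rarer than residual C. They made up 0.154% ± 0.0568 (SD, n = 8) at Dnmt1, 0.0743% ± 0.0296 (SD, n = 8) at Dnmt3a and 0.113% ± 0.0486 (SD, n = 8) at Dnmt3b. On the guide strand G exceeded A at Dnmt3a in 8 of 8 embryos, whereas A exceeded G at Dnmt3b in 8 of 8. At Dnmt1 the order of A and G differed between edited embryos. These are very small shares, the largest of them 0.194% (A at Dnmt3b in E9.5 embryo 3). In the Dnmt3a controls A exceeded G (0.271% against 0.155% at E9.5, 0.244% against 0.180% at E10.5). In the Dnmt3b controls A was 0.725% and G 1.05% at E9.5, and A was 0.0799% and G 0.0331% at E10.5. The controls of the same tables held more A plus G, at 2.68% and 2.06% at Dnmt1, 0.426% and 0.424% at Dnmt3a, and 1.77% and 0.113% at Dnmt3b. The edited embryos were lower, with differences of −2.21 points at Dnmt1 and −0.351 points at Dnmt3a (exact permutation test, adjusted p = 0.0333 for both, n = 8 and 2), and the difference at Dnmt3b, −0.830 points, did not pass (adjusted p = 0.0889, exact). Both calls were lost when the embryos of any 1 number were left out (exact permutation test, adjusted p = 0.0536) or when either control was (0.111 to 0.167), at similar sizes. With control embryos of the other tables added, neither call remained (exact permutation test, adjusted p = 0.572 at Dnmt1 and 0.304 at Dnmt3a).

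Conversion away from the target was read from all 15 reference C of the 3 windows. Apart from the 3 targets, 2 positions reached a mean T share of 5% in edited embryos, and both lie within the first bases of the protospacer. At Dnmt1 C3, whose change is synonymous, the T share was 64%, 86%, 79% and 63% in E9.5 embryos 1 to 4 and 67%, 90%, 92% and 90% in E10.5 embryos 1 to 4. The controls had 1% and 0%. Edited embryos had a mean of 78.9% ± 12.4 (SD, n = 8) with 3 embryos at 63% to 67% and 5 at 79% to 92%, while C7T in the same windows varied by less than 1 point. C7T exceeded C3T by 7.49 to 36.3 points (mean 20.6 ± 12.4, SD, n = 8).

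At Dnmt3a C4, the other base of the tryptophan codon, the T share was 100%, 99%, 97% and 100% at E9.5 and 100%, 100%, 100% and 99% at E10.5, against 1% in both controls. It followed the target closely, and C4T and C5T differed by at most 0.562 points in any embryo, which is within or near the rounding of C4 to whole percents. With C4 taken 0.5 points lower to allow for this rounding, at least 93.7% to 99.3% of the reads of an embryo carried both changes, which gives the stop codon taa on the gene's strand, and at most 2.81% carried neither. At Dnmt1 the same arithmetic gives a share of reads with both C3T and C7T of at least 61.8% to 91.0%.

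The other 10 C positions stayed low. At 8 of them T was listed at 0 in every edited embryo, including C16 and C18 of Dnmt1 and C14 and C15 of Dnmt3b, which lie beyond position 12 of the protospacer or in the Dnmt3b intron. The other 2 are in Dnmt3a and were singled out after their values had been seen. C(-2)T (C579Y), in the bases before the protospacer, was listed at 12% in E10.5 embryo 3, at 1% in 6 embryos and at 0% in E10.5 embryo 4, against 0% in both controls. C12T (D575N) was at 3% in E10.5 embryo 1 and at 0% in the other 7.

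Against the controls, 5 of the 15 positions were higher in edited embryos at the smallest p the design allows (33.3% of the positions, exact permutation test, p = 0.0222, n = 8 and 2), namely the 3 targets, Dnmt1 C3 and Dnmt3a C4. One position, Dnmt1 C16, was lower at the same p, with 0% in all edited embryos and 2% in both controls. After adjustment over the 15 positions 0 passed (0%, adjusted p = 0.0556 in the exact test for these 6), because at least 7 positions at the smallest p would be needed for any call. Adding the control embryos of the other tables, 9 at Dnmt1 and 10 at each de novo site, gave 6 called positions (exact permutation test), the same 5 and Dnmt3a C(-2), with an adjusted p of 0.000258 at a difference of 2.25 points. E10.5 embryo 3, at 12%, carried most of that difference, which was 0.833 points without the embryos numbered 3 (exact permutation test, adjusted p = 0.00175). Apart from that embryo, edited embryos were listed at 0% or 1% there, and 1% is the smallest step of these whole-percent values.

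**Figure D3:**
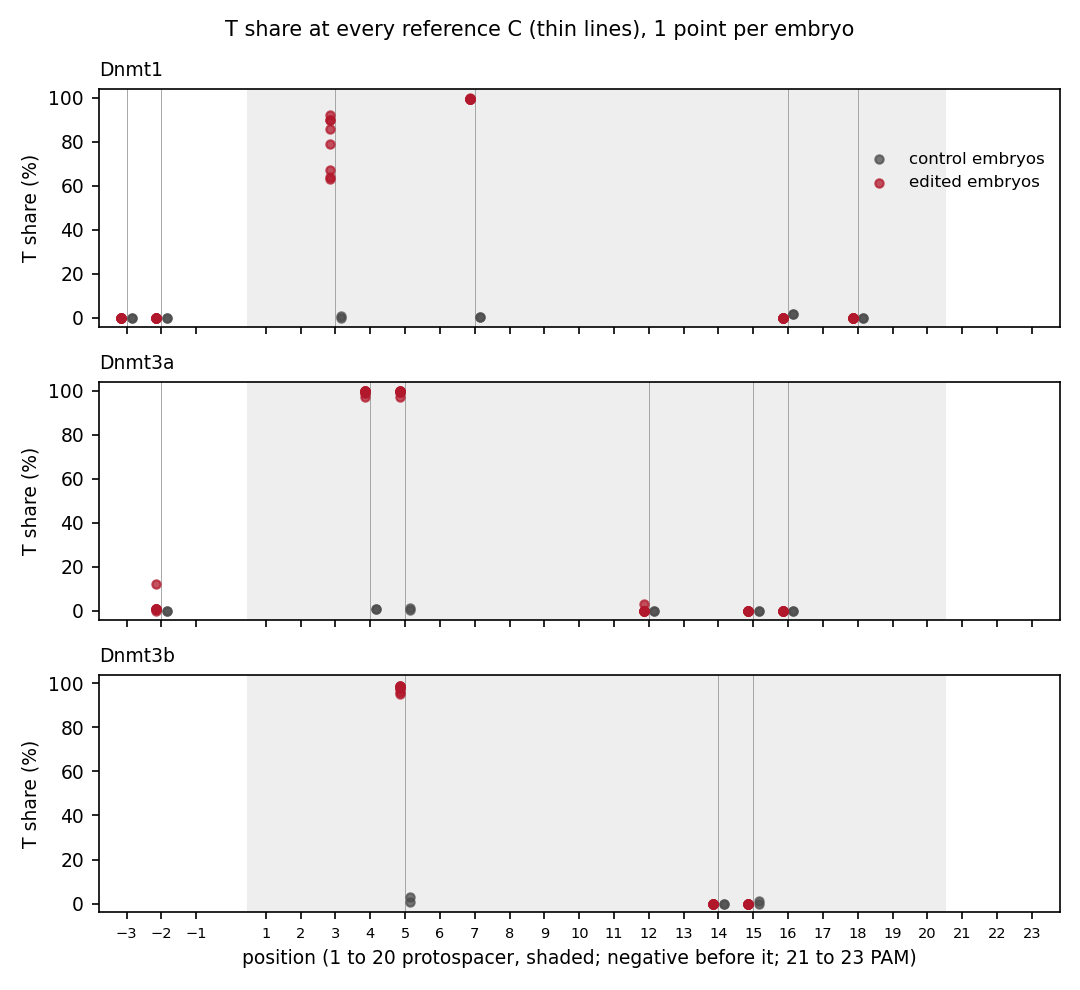
T share in percent (y axis) at every reference C of the Dnmt1, Dnmt3a and Dnmt3b windows (x axis, position from the start of the protospacer), 1 point per edited or control embryo. Edited embryos are high at positions 3 and 7 of Dnmt1, 4 and 5 of Dnmt3a and 5 of Dnmt3b, and at or near 0% elsewhere except for 12% at position −2 and 3% at position 12 of Dnmt3a in single embryos.

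Stage was compared within the edited embryos, 4 against 4. At Dnmt1 C7 the T share was 99.3% ± 0.0641 (SD, n = 4) at E9.5 and 99.6% ± 0.127 (SD, n = 4) at E10.5, and all 4 E10.5 embryos were above all 4 E9.5 embryos. The difference of 0.252 points had the smallest p that the 70 splits allow (exact permutation test, two-sided, p = 0.0286) but did not pass after adjustment over 5 positions (adjusted p = 0.143). Among reads with T or C alone, T/(T+C), the difference was 0.197 points (exact permutation test, adjusted p = 0.429). By that share the stages overlapped, since E9.5 embryo 1 (99.66%) was above E10.5 embryos 1 (99.64%) and 3 (99.59%). At Dnmt1 C3 the means were 73.0% ± 11.3 (SD, n = 4) and 84.7% ± 11.9 (SD, n = 4), with overlapping embryos (exact permutation test, p = 0.171, adjusted p = 0.429). At Dnmt3a C5 the difference of E10.5 from E9.5 was 0.556 points (exact permutation test, p = 0.771, n = 4 and 4), at Dnmt3a C4 it was 0.750 points (p = 0.714), and at Dnmt3b C5 it was 0.00418 points (p = 1). The embryos of the 2 stages are different animals, and 1 control per stage gives no spread for the controls.

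**Figure D4:**
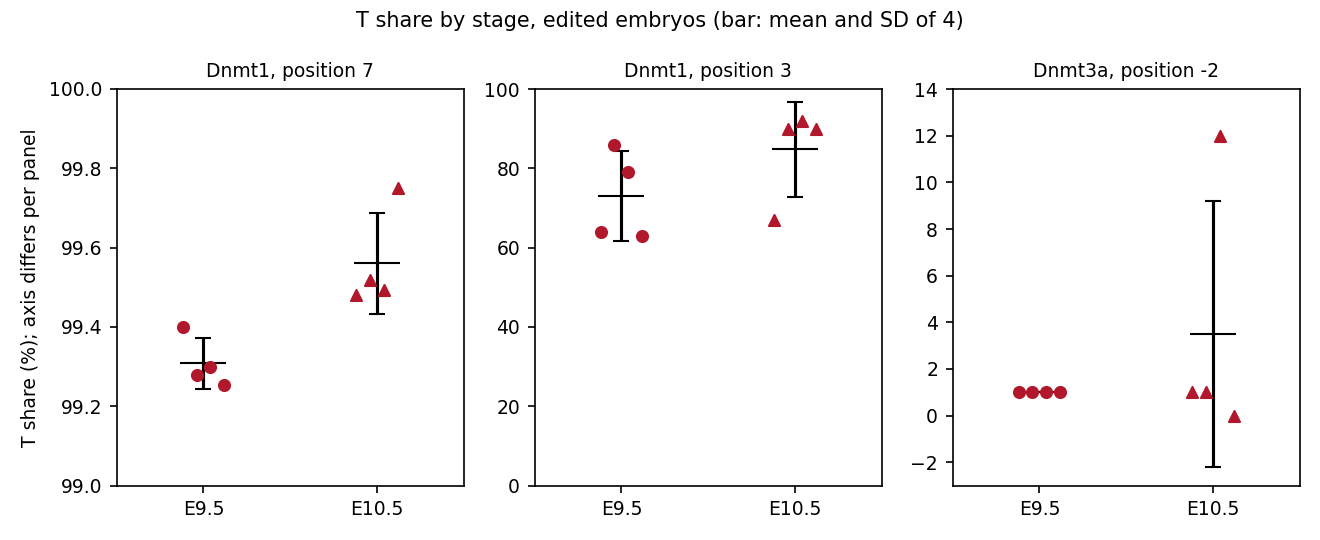
T share in percent (y axis, with its own range in each panel) at positions 7 and 3 of Dnmt1 and position −2 of Dnmt3a for E9.5 and E10.5 edited embryos (x axis), with points for embryos and bars for the mean and SD of 4. The E10.5 points lie above the E9.5 points at Dnmt1 position 7, overlap at position 3, and include 1 embryo at 12% at Dnmt3a position −2.

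The positions that hold no C gave the background of each table. In all 24 edited windows every such position was listed with the reference base in all reads, at the 2 decimals of the tables. In 5 of the 6 control windows the reference base was listed below 100% there. The share of reads without the reference base averaged 2.50% (E9.5) and 1.70% (E10.5) in the Dnmt1 controls, 1% in both Dnmt3a controls and 4.17% in the E9.5 Dnmt3b control, and it was 0% in the E10.5 Dnmt3b control. In the Dnmt3a controls no single other base was above the others at these positions, so that 1% is at the rounding of the table. Over all 78 positions, 45 were lower in edited embryos with an adjusted p under 0.05 (57.7%, exact permutation test) and 5 were higher, the same 5 C as above. At positions without a C, 39 of 63 were lower (61.9%), 19 in Dnmt1, 20 in Dnmt3a and 0 in Dnmt3b. With the controls of the other tables added, 0 positions were lower, so these calls rest on the controls of the 2 tables used here.

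In the Dnmt1 controls the other bases had an order along the window. Where 1 other base led at a position without C, it was the base that follows in the reference at 14 of 16 positions in the E9.5 control and at 14 of 15 in the E10.5 control. Over all positions with a following base in the window, C included, those followed by the same base had lower shares of other reads. These averaged 1% at E9.5 and 0.833% at E10.5 (6 positions), against 3.01% and 2.02% at positions followed by a different base (19 positions). The T at C16 was of the same form, since C16 is followed by T, and so was the A at the target, which is followed by A and was read as A in 2.30% and 1.78% of control reads. In the E9.5 Dnmt3b control the leading other base was the following one at 5 of 16 positions. Its positions followed by the same base averaged 3.33% and those followed by a different base 4.42%. For the E10.5 Dnmt3b control these averages were 0% and 0.0514%. For the Dnmt3a controls they were 1.1% and 1.04% at E9.5 and 1% and 0.995% at E10.5. The part of these reads in the differences between edited and control embryos was not tested.

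**Figure D5:**
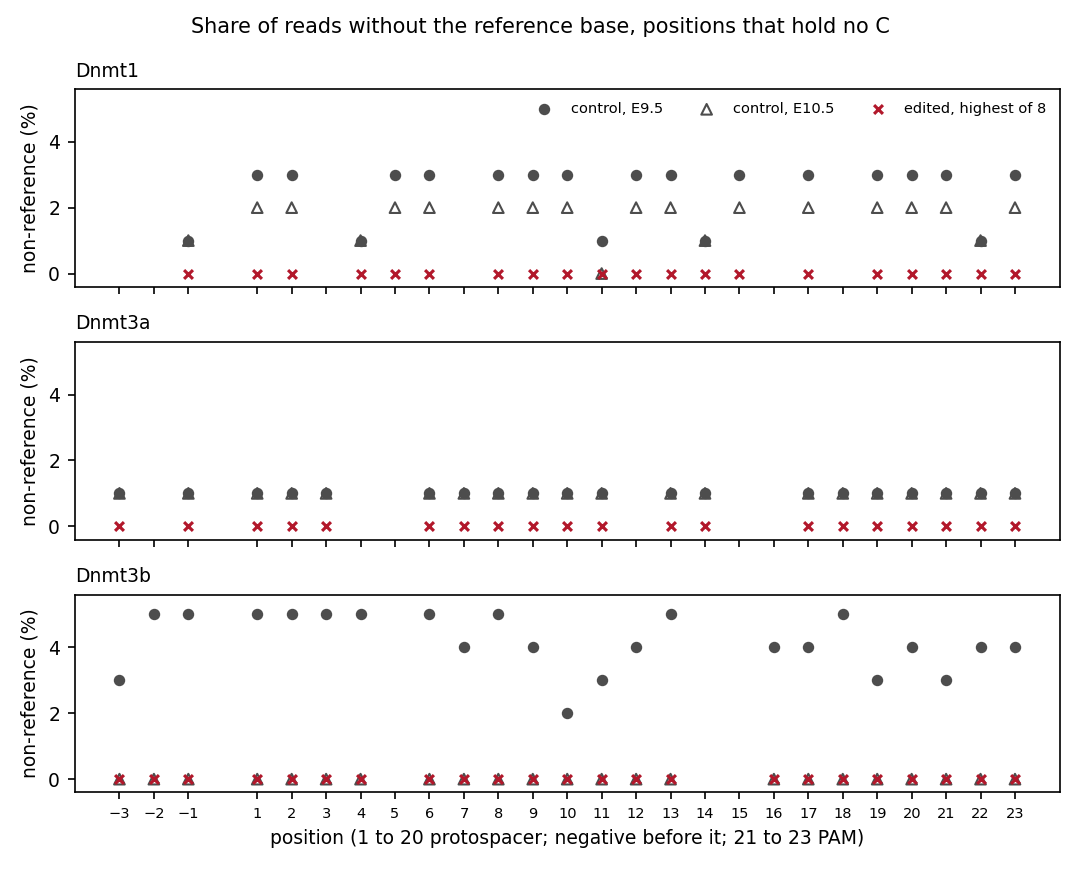
Percentage of reads without the reference base (y axis) at the positions of each window that hold no C (x axis, position from the start of the protospacer), for the E9.5 control, the E10.5 control and the highest of the 8 edited embryos. Edited embryos lie at 0 throughout, the Dnmt1 controls between 0% and 3%, the Dnmt3a controls at 1%, and the E9.5 Dnmt3b control between 2% and 5%.

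The highest share of reads without the reference base at any position of a control window was 5%. All 3 windows were thus read as the reference sequence in the controls.

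Dnmt-TKO embryos, which received all 3 of these sgRNAs together, were the nearest group for comparison, and this comparison was chosen after the values were known. Residual C at Dnmt1 was 0.381% ± 0.579 (SD, n = 12) there against 0.412% ± 0.143 (SD, n = 8) in Dnmt1-KO (difference −0.0309 points, exact permutation test, p = 0.92, adjusted p = 0.92). At Dnmt3a it was 1.99% ± 1.56 (SD, n = 12) against 0.619% ± 0.863 (SD, n = 8), a difference of 1.37 points (exact permutation test, p = 0.0347, adjusted p = 0.104 over 3 sites). At Dnmt3b it was 1.84% ± 1.24 (SD, n = 12) against 2.24% ± 1.30 (SD, n = 8) (difference −0.403 points, exact permutation test, p = 0.494, adjusted p = 0.74). The stages differed, with Dnmt-TKO embryos from E6.5 to E9.5 and none at E10.5. Among E9.5 embryos alone the difference in residual C at Dnmt3a had the opposite sign, −0.330 points (exact permutation test, p = 1, n = 3 and 4). The means were 0.575% in Dnmt-TKO and 0.904% in Dnmt3ab-DKO. E9.5 embryo 3 of Dnmt3ab-DKO held 2.74%. The other E9.5 embryos of that group held 0.181% to 0.382%, each below the Dnmt-TKO mean, so the sign rested on embryo 3.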

How the data were processed

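Genomic DNA of single embryos was amplified at the target sites, barcoded, pooled and sequenced by the authors on an Illumina instrument. The deposited values are fractions of reads that hold each of the 4 bases at 26 reference bases per embryo and gene, with 2 decimals at most positions and 5 or 6 at the target. The genome build named in the processing notes is mm10. The aligner, read filters and handling of insertions and deletions were not given in the sources used here.

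Fractions were read as percent. The Dnmt3a window, written on the opposite strand, was reversed and complemented. Protospacers were matched to GRCm38 and annotated with GENCODE M21. Groups followed the labels, and embryos were tied to them by name. Members and lists were chosen with earlier results of these data known. The 3 targets were named, and any other C with a mean T share of at least 5% in edited embryos or a called difference of at least 1 point. The target was the C at positions 3 to 9 that makes the stop, and C5 in Dnmt3a.

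Differences and correlations were tested with exact permutation tests over embryos (Python 3.11.15, numpy 2.4.6, scipy 1.17.1), two-sided, with Benjamini-Hochberg adjustment, tested on simulated data. Single embryos far from their group were marked by Dixon's ratio. The comparison of Dnmt1 with the other sites was planned with resampling and was enumerated over all 12870 splits. Alternatives covered the share T/(T+C), the logit scale, ranks, stage blocks, replicate blocks and the omission of embryos, stages or controls.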

Additional observations from a re-analysis of the deposited data

Results flagged for a closer look

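Among 10 sets of 8 edited embryos with any spread (target T, target A plus G and the T share at other C), 5 held a lowest or highest embryo so far from the next one, as a part of the range of the 8, that it passed the 95% critical value of Dixon's test. All 5 were in Dnmt3a, and the sets are not independent, because C4 and C5 are read from the same reads. For normally distributed values chance alone gives about 1 in 20 sets. This rate covers at most the 6 sets of target bases, of which 2 passed, and whether their values are normally distributed was not tested. The other 4 sets, of which 3 passed, are whole percents with ties, so the rate does not apply to them. At C12 a single embryo above 7 at 0 passes whatever its value.

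E9.5 embryo 3 was low at both bases of the Dnmt3a tryptophan codon, with C5T at 97.2% (next 99.5%) and C4T at 97% (next 99%). The same embryo was lowest at Dnmt3b. E10.5 embryo 3 had C(-2)T at 12% where the next embryo had 1%, and E10.5 embryo 1 had C12T at 3% where the others had 0%. In E10.5 embryo 2, A plus G at C5 was 0.139% (next 0.0862%).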

How the results depend on the processing

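With few embryos most alternatives lower the number of splits, so that a call can be lost without any change in size. With only embryos numbered 1 and 2, the target difference was 98.99 points at Dnmt1, 98.8 at Dnmt3a and 96.0 at Dnmt3b (adjusted p = 0.0667, exact permutation test). Without E9.5 it was 99.2, 99.1 and 96.8 points, and without E10.5 it was 98.8, 97.9 and 94.5 points (adjusted p = 0.2, exact). Leaving out 1 number or 1 control gave 98.9 to 99.1, 98.2 to 98.8 and 94.5 to 96.8 points, and the calls held without any 1 number (adjusted p = 0.0357, exact) and were lost without either control (0.111), as were those for residual C. For residual C the same omissions gave −97.2 to −96.4 points at Dnmt1, −98.5 to −97.8 at Dnmt3a and −96.8 to −92.8 at Dnmt3b. For A plus G they gave −2.53 to −1.90, −0.359 to −0.345 and −1.66 to 0.00025 points, the last without the E9.5 control, and the calls at Dnmt1 and Dnmt3a were lost under each omission. With the controls of the other tables added (chosen after seeing the data), A plus G differed by −0.384 points at Dnmt1 and −0.0823 at Dnmt3a. Over all positions, 0 were called lower and 0 higher when any number or control was left out, and 0 lower with the added controls. At reference C the added controls gave 6 calls in place of 0.

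Residual C at Dnmt3b exceeded that at Dnmt1 by 1.46 points with numbers 1 and 2 only, 1.93 without E9.5 and 1.74 without E10.5 (adjusted p = 0.0857, exact), and that at Dnmt3a by 1.57, 1.91 and 1.34 points (adjusted p = 0.188, exact). Each kept its direction. Under the replicate block, with labels permuted within embryo number over both tables, the differences from Dnmt1 stayed 1.83 points at Dnmt3b (adjusted p = 0.00463, exact) and 0.207 at Dnmt3a (adjusted p = 0.889, exact). The numbers name different animals in the 2 tables and pair nothing. The sign of Dnmt3a minus Dnmt1 turned on ranks (−1.50), with numbers 1 and 2 only (−0.102 points), with C4 in place of C5 (−0.0368) and without embryos 3 (−0.0932 to 0.318 over the omitted numbers).

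The stage difference at Dnmt3a C5 ranged from −0.0378 to 0.832 points over omitted numbers. At Dnmt3b C5 it ranged from −0.861 to 0.896, with −0.00747 without number 1 and −0.0103 without number 4, and was −0.0490 on the logit scale and −1.32 points with numbers 1 and 2 only. The correlation between Dnmt3a and Dnmt3b ranged from −0.234 without embryos 3 to 0.943 without embryos 2, and was −0.174 without E9.5 embryo 3 alone. The value without embryos 2 had an exact permutation p of 0.0403, not adjusted for the several omissions made. Embryos at 98% and 99% at every site numbered 3 and 0 in Dnmt3ab-DKO. The causes of these changes were not tested beyond the embryos and controls left out.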
